A study of Homo sapiens with 8 samples.

Results

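The C/EBP family was examined in K562, a human cell line derived from a chronic myeloid leukaemia, with erythroid features. The members were 7 genes, CEBPA, CEBPB, CEBPD, CEBPE, CEBPG, CEBPZ and DDIT3, chosen by name, and all probe sets were taken whose platform annotation gives 1 of these symbols alone. They held 9 probe sets of 54675 and stood for 7 of 19775 genes. All cells stably carried p42-C/EBPα-ER, the full-length form of C/EBPα joined to the oestrogen receptor, so CEBPA itself is part of the transgene. The samples were 4 cultures with 1 µM beta-estradiol and 4 with the ethanol vehicle, each for 6 h, in medium without phenol red and with serum stripped by charcoal. The promoter of the transgene, and whether the line is a single clone, are not stated in the labels. Cells lacking the fusion are no group of this design, so effects of estradiol that do not need the fusion cannot be told apart from those that do. The sample titles call the samples biological replicates, and p-values measure the spread between them. In such bulk samples fewer cells of a kind and less RNA per cell cannot be told apart.

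C/EBP proteins carry a basic region that touches DNA and a leucine zipper through which they pair with each other or with relatives such as ATF4. Pairing decides which sites are bound, so the balance between members matters as much as any single one. In blood formation CEBPA is needed to enter the granulocyte lineage, CEBPE acts late in granulocytes, and CEBPB and CEBPD respond to cytokines. CEBPG has no activation domain of its own and works as a partner. DDIT3, also named CHOP, is induced by stress and has an altered basic region. CEBPZ carries the family's symbol but is no leucine zipper protein. It is a CCAAT-binding factor related to the yeast ribosome assembly protein Noc1.

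Estradiol raised 3 members of the family. DDIT3 rose 1.74-fold, CEBPE 1.33-fold and CEBPG 1.21-fold, the last on 1 of its 2 probe sets. The other 4 members, CEBPA, CEBPB, CEBPD and CEBPZ, did not pass the test (limma, Benjamini-Hochberg adjusted p below 0.05 over all genes), and 0 of 7 fell, although 2 were lower at an unadjusted p under 0.05 (CEBPD and CEBPZ). Over all genes 17.9% were called in either direction, 8.29% higher and 9.6% lower. The family's 42.9% rests on 7 genes, is not matched for level and is a description. The median log2 change of the members was 0.09, against −0.03 over all genes.

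The stretches before the starts of the 3 raised genes are shown as a description. In this design every gene called higher was higher in the estradiol arrays, so their rise does not link the 3. They are RefSeq sequences of build GRCh38.p14, each 250 bases long, written in the direction of the gene and ending just before the annotated start. Capitals mark matches to any of 4 motifs on either strand. The motifs were CCAAT (the CCAAT box), TTGCNNAA (a C/EBP site), TGATGNAA (the C/EBP-ATF response element) and TGANTCA (the AP-1 site), and no match overlapped another.
DDIT3, chr12:57520518-57520767, minus strand: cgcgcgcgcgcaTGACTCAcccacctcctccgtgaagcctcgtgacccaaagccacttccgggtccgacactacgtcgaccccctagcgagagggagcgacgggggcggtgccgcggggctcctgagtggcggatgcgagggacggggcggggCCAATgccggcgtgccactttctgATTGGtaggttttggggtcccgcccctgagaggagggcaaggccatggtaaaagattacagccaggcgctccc
CEBPE, chr14:23119256-23119505, minus strand: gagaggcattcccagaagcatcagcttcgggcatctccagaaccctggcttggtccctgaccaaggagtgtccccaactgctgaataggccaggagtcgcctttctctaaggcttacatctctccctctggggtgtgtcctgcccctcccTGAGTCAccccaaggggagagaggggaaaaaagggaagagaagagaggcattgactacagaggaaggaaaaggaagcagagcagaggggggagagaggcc
CEBPG, chr19:33373459-33373708, plus strand: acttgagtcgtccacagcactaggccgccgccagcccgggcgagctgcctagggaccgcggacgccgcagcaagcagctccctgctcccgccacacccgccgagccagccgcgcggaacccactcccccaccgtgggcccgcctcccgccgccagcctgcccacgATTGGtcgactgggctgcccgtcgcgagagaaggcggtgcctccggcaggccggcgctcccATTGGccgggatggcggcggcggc

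The DDIT3 stretch held a TGANTCA match 238 to 232 bases before the start and 2 CCAAT matches, at 97 to 93 and 73 to 69 bases. The CEBPE stretch held a TGANTCA match 100 to 94 bases before the start and no CCAAT. The first CEBPG start had 2 CCAAT matches in reverse, at 85 to 81 and 24 to 20 bases. CEBPG has a second annotated start, and 42 to 35 bases before it lay the 1 TGATGNAA match found in the family's windows, shown with its surroundings.
CEBPG, second start, chr19:33374060-33374089, plus strand: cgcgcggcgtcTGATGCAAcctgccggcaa

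The table gave 9 such windows for 6 of the members, with 2 starts each for CEBPB, CEBPG and DDIT3. It held none for CEBPD, which was not searched. The 2 DDIT3 windows overlap almost fully and held the same matches. TTGCNNAA was in 0 of the 9 windows, and it was in 9.05% of all 35116 windows in the table. CCAAT stood in 32.0% of all windows, TGANTCA in 6.57% and TGATGNAA in 3.14%. The CEBPA and CEBPZ windows and the first CEBPB window held no match. A match is a description of the letters, and the windows say nothing about sites outside them.

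CEBPA, the myeloid factor that is also part of the fusion, had 1 probe set, 204039_at. Its log2 values were 6.19, 6.47, 6.34 and 6.39 with estradiol, against 6.33, 6.41, 6.44 and 6.31 with vehicle. The groups overlapped, and estradiol replicate 1 was the lowest of the 8 arrays. The change was −0.02 ± 0.07 (SE, limma adjusted p = 0.883), with a 95% interval from −0.17 to 0.13. Its sign turned to positive with median centring of each array (0.0049) and without estradiol replicate 1 (0.03). The files do not say whether the probes lie within the transgene, so the signal may come from the native gene, the fusion transcript or both. ESR1, the gene of the fusion's receptor part, differed by 0.04 ± 0.06 (SE, adjusted p = 0.699) at its brightest probe set, and 0 of its 9 probe sets was called in limma, the smallest adjusted p over all probe sets being 0.478. The mean levels of these 9 ran from 2.56 to 8.73, the dimmest under the arrays' lower quartiles (3.67 to 3.74).

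CEBPE, a factor of late granulocyte maturation, rose. Its values at 214523_at were 5.73, 5.81, 5.51 and 5.61 with estradiol and 5.19, 5.44, 5.16 and 5.23 with vehicle. The groups did not overlap, and vehicle replicate 2 came nearest to the lowest estradiol array, replicate 3. The mean was 5.66 ± 0.13 with estradiol and 5.25 ± 0.13 with vehicle (SD, n = 4 each), a log2 change of 0.41 ± 0.08 (SE, adjusted p = 0.00783; 95% interval 0.22 to 0.60). Its mean level stood at percentile 42.6 of all genes, a little above the array medians over probe sets of 4.97 to 5.08. No detection calls were used here, so its distance from background is unknown.

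CEBPB, a cytokine-responsive activator also known as NF-IL6, was bright and hardly moved. It had 9.90, 9.93, 9.92 and 9.89 with estradiol at 212501_at, against 9.87, 9.77, 9.85 and 9.80 with vehicle. All 4 estradiol arrays lay above all 4 vehicle arrays, the nearest by 0.02. The change of 0.09 ± 0.04 (SE) did not pass the test (adjusted p = 0.210), and its 95% interval ran from −0.01 to 0.18. A rise above 0.18 on the log2 scale is thus outside that interval.

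CEBPD, an early responder to inflammatory cytokines, had 2 probe sets with differences of opposite sign. The brighter, 203973_s_at, had 6.90, 6.91, 6.97 and 6.97 with estradiol, against 7.13, 7.01, 7.02 and 7.13 with vehicle. All estradiol arrays lay below all vehicle arrays, and the change of −0.14 ± 0.05 (SE) did not pass the test over all genes (adjusted p = 0.0859). It passed with a further quantile normalization (adjusted p = 0.0262) and with genes above the median level only (adjusted p = 0.0233). The dimmer, 213006_at, had 3.18, 2.97, 2.91 and 2.97 with estradiol and 2.74, 3.11, 2.87 and 2.75 with vehicle. All 8 values lie under the arrays' lower quartiles (3.67 to 3.74). The groups overlapped, with a change of 0.14 ± 0.09 (SE, adjusted p = 0.480 over all probe sets). The changes of the 2 probe sets differed by −0.27, which did not pass an exact two-sided permutation test over the arrays (p = 0.143, and 0.143 adjusted over 2 genes), and their mean changed by 0.00015.

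CEBPG, the partner without an activation domain, was called on 1 probe set. At 204203_at it had 8.20, 8.32, 8.19 and 8.22 with estradiol, against 8.11, 7.90, 7.98 and 7.86 with vehicle. The groups did not overlap, and vehicle replicate 1 stood nearest to the estradiol arrays. The mean was 8.23 ± 0.06 with estradiol and 7.96 ± 0.11 with vehicle (SD, n = 4 each), a log2 change of 0.27 ± 0.06 (SE, adjusted p = 0.0149; 95% interval 0.13 to 0.41). Without 1 array at a time the adjusted p over genes ran from 0.00466 to 0.0477.

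The other CEBPG probe set, 225527_at, had 8.05, 8.03, 8.12 and 8.11 with estradiol and 8.08, 7.84, 8.01 and 7.99 with vehicle. Its groups overlapped at vehicle replicate 1, and the change of 0.10 ± 0.06 (SE) was not called over all probe sets (adjusted p = 0.428). The change at 204203_at exceeded that at 225527_at by 0.17 (exact two-sided permutation test, p = 0.0286, the smallest that 4 against 4 arrays can give, and 0.0571 adjusted over the 2 genes with several probe sets). The mean of both probe sets rose by 0.18 (adjusted p = 0.0423). Over all probe sets the call at 204203_at (adjusted p = 0.0284) was lost in 7 of the 8 fits without 1 array, at adjusted p from 0.0506 to 0.0885, the exception being that without vehicle replicate 1.

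DDIT3, the stress-induced factor CHOP, had the largest change of the family. At 209383_at it had 9.09, 9.14, 8.97 and 9.01 with estradiol, against 8.24, 8.34, 8.20 and 8.23 with vehicle. The lowest estradiol array lay far above the highest vehicle array, more than the whole spread of either group. The mean was 9.05 ± 0.08 with estradiol and 8.25 ± 0.06 with vehicle (SD, n = 4 each), a log2 change of 0.80 ± 0.05 (SE, adjusted p = 1.21e-05; 95% interval 0.68 to 0.92). It ranked 233 among all genes by rise. Under the 15 other settings the change stayed between 0.77 and 0.83 and its adjusted p did not exceed 0.000374.

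CEBPZ, the ribosome assembly relative, stood apart from the raised members in direction. At 203341_at it had 10.07, 10.06, 9.98 and 9.98 with estradiol, against 10.26, 10.08, 10.20 and 10.20 with vehicle. The groups did not overlap, with vehicle replicate 2 just above estradiol replicate 1. The change of −0.16 ± 0.05 (SE) did not pass the test (adjusted p = 0.0587; 95% interval −0.28 to −0.05). It passed under 5 of the 15 other settings, among them the fit without vehicle replicate 2 (−0.20, adjusted p = 0.0184) and a variance trend with a robust fit (adjusted p = 0.00420).

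In all, 6 of the 9 probe sets had groups that did not overlap, against 17.5% of all probe sets, and 3 were called, all higher, against 10.4% called in either direction, 5.32% higher and 5.05% lower. At gene level the groups did not overlap in 6 of 7 members, against 24.1% of all genes, which were not matched for level. CEBPB, CEBPD and CEBPZ were in this state without a call, each with a log2 change under 0.2 in size.

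**Figure D1:**
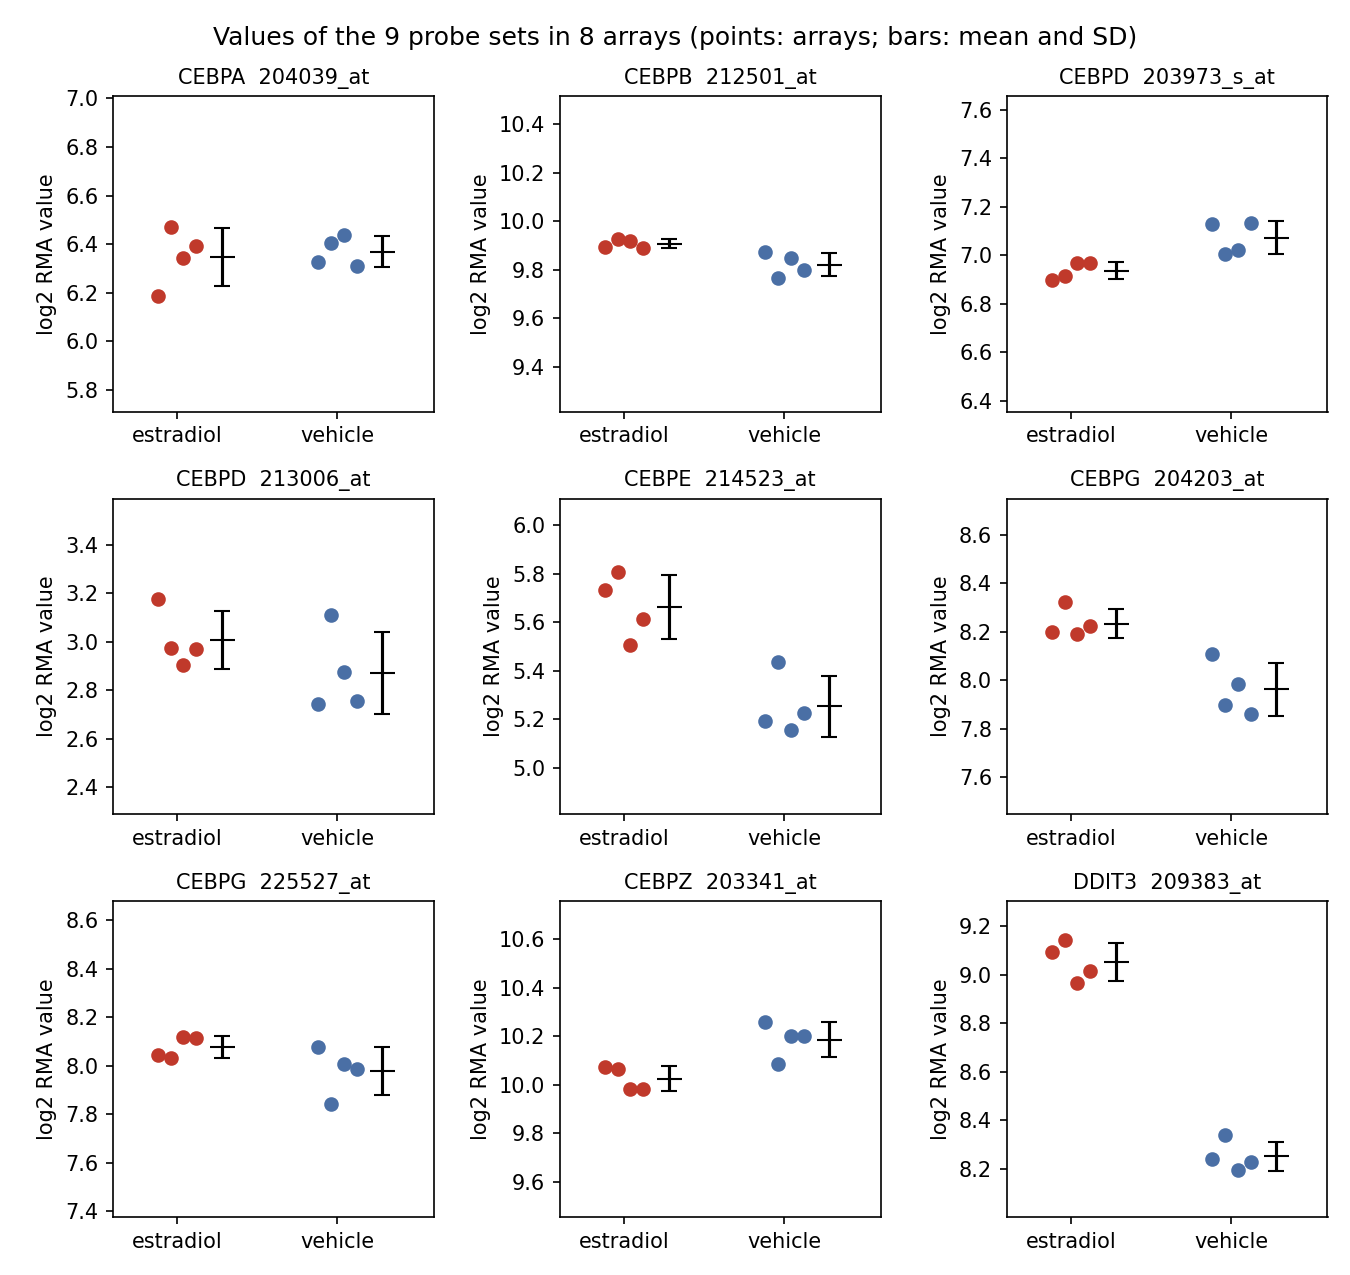
Log2 RMA value (vertical axis, the same span in every panel) of each of the 9 probe sets in the 4 estradiol arrays (red) and the 4 vehicle arrays (blue), with the mean and SD as black bars. DDIT3 shows the widest gap, and CEBPA, CEBPD at 213006_at and CEBPG at 225527_at show groups that overlap.

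**Figure D2:**
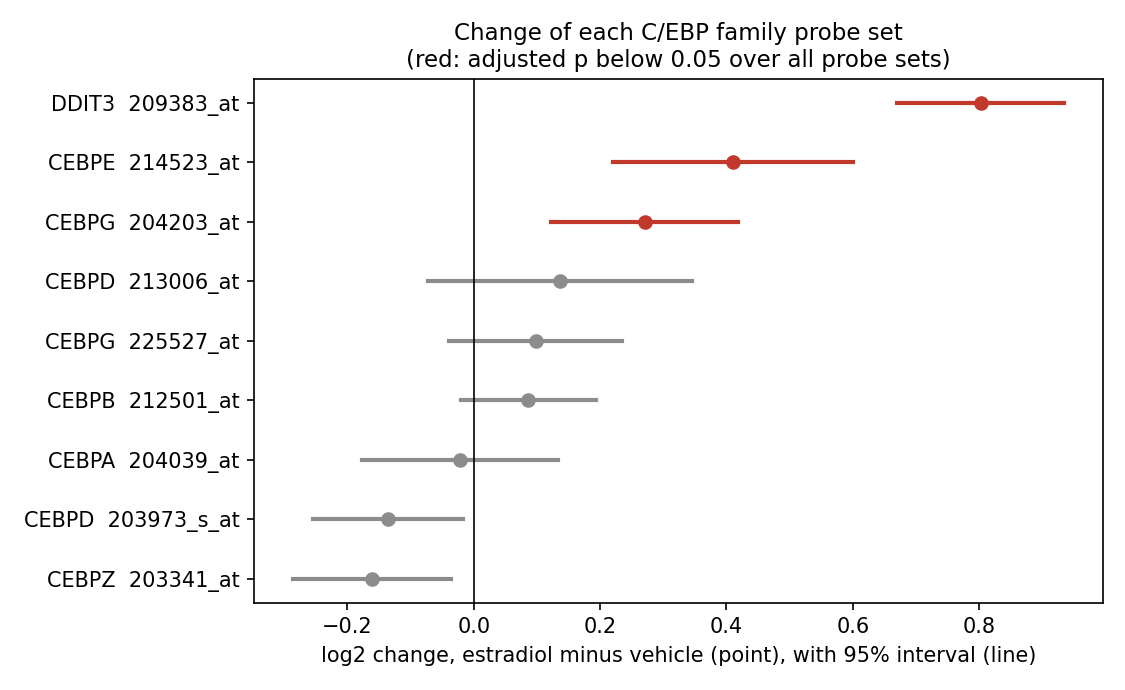
Log2 change, estradiol minus vehicle, of each probe set (points) with its 95% interval (lines), from the limma fit over all probe sets; red marks adjusted p below 0.05. DDIT3 at 0.80, CEBPE at 0.41 and CEBPG at 0.27 are red, and the others lie between −0.16 and 0.14.

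The members were then compared with each other by their changes, since levels of different probe sets cannot be compared. For each of 21 pairs the difference of the 2 log2 values was taken within each array and set between the groups by an exact two-sided permutation test. The 95% intervals are from limma fitted to the 21 differences alone. These share genes and are not independent, so the intervals are a description beside the exact test. Of the 21 pairs 15 differed, each at an exact p = 0.0286, the smallest possible, and 0.0400 after Benjamini-Hochberg adjustment over the pairs. DDIT3 rose more than each of the other 6 members. The excess was 0.39 over CEBPE (95% interval of the listed difference, CEBPE minus DDIT3, −0.53 to −0.26) and 0.53 over CEBPG (CEBPG minus DDIT3, −0.69 to −0.38), and it was widest against CEBPZ (CEBPZ minus DDIT3 −0.96, interval −1.11 to −0.81).

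CEBPE and CEBPG, the other raised members, did not differ from each other past the threshold (CEBPE minus CEBPG 0.14, interval −0.05 to 0.32; exact p = 0.314, adjusted 0.330). Both changed by more than CEBPA, by 0.43 for CEBPE (CEBPA minus CEBPE −0.43, interval −0.61 to −0.25) and by 0.29 for CEBPG (CEBPA minus CEBPG −0.29, interval −0.45 to −0.14). CEBPE and CEBPB did not differ past the threshold in the exact test (CEBPB minus CEBPE −0.32, limma interval −0.50 to −0.14; exact p = 0.0571, adjusted 0.0750).

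CEBPB and CEBPD, the cytokine-responsive pair, differed in their changes although neither passed the test alone. CEBPB minus CEBPD, at its brighter probe set, was 0.22 (interval 0.09 to 0.36; exact p = 0.0286, adjusted 0.0400). This rests on that probe set, since the dimmer CEBPD probe set changed by 0.14 and the mean of both by 0.00015. CEBPD and CEBPZ, at −0.14 and −0.16, did not differ past the threshold (difference 0.03, interval −0.11 to 0.17; exact p = 0.600). CEBPA did not differ past the threshold from CEBPB, CEBPD or CEBPZ, with intervals that allow differences of up to 0.31 in size. With each gene taken as its probe sets' mean 12 pairs differed, and with limma on the differences 16.

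**Figure D3:**
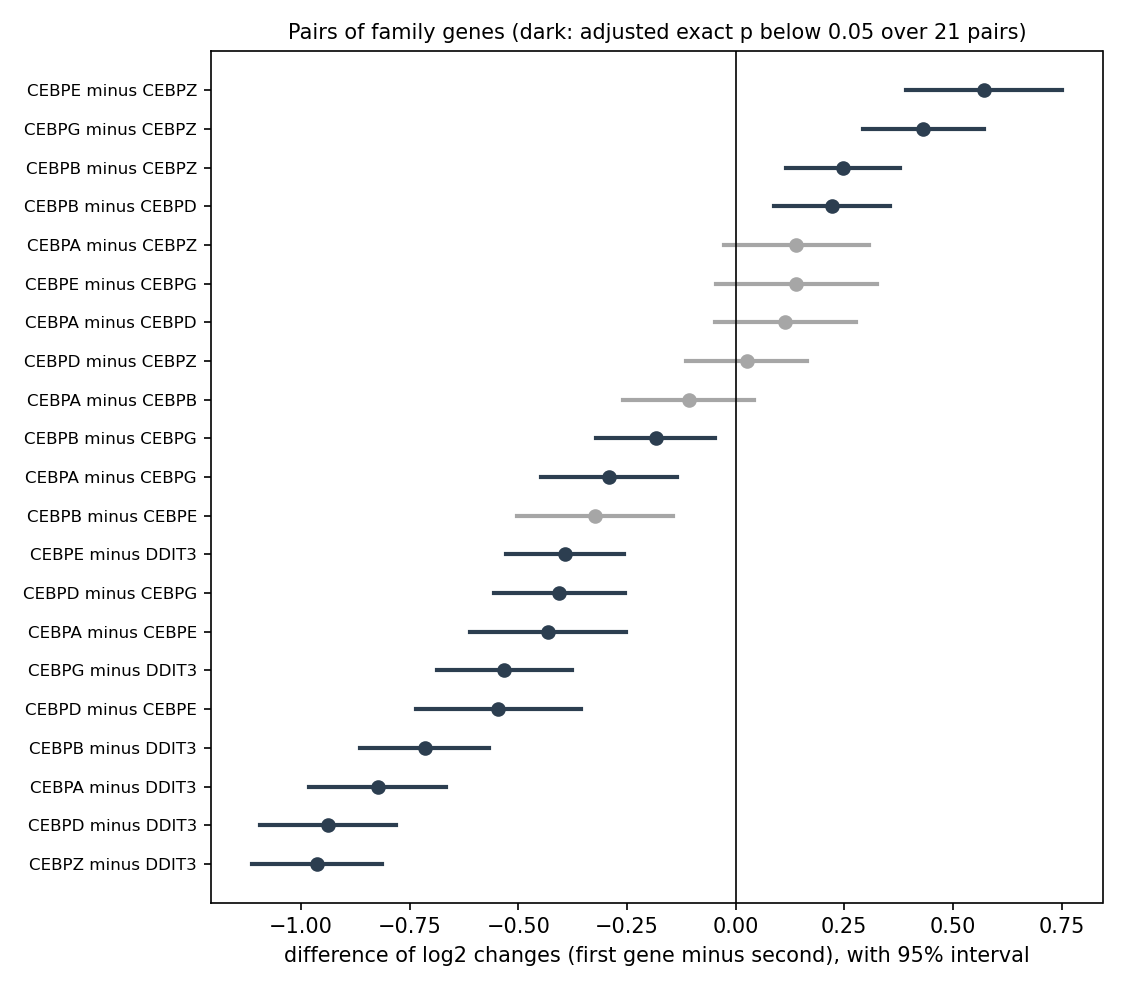
Difference of the log2 changes of 2 family genes, first minus second (points), for all 21 pairs. Lines are 95% intervals from limma on these differences, which share genes and are not independent. Dark marks adjusted exact p below 0.05. The 6 pairs that end in DDIT3 are dark and all negative, from −0.39 to −0.96.

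The genes whose profiles over the 8 arrays were most like each raised member were found by the root mean square difference of the log2 values after centring each gene on its mean. A change close to the member's own follows from this choice. For DDIT3 these were DGKZ, a diacylglycerol kinase (0.0322), CCND3, cyclin D3 (0.0406), and PLAUR, the urokinase receptor (0.0574), which rose by 0.75, 0.81 and 0.71. For CEBPE they were RASGRP2, an exchange factor for Rap proteins (0.0638), SLC2A4RG (0.0798) and ITGA5, a chain of the fibronectin receptor (0.0833), which rose by 0.44, 0.46 and 0.42. For CEBPG they were BBS1 (0.0276), the protease CASP9 (0.0291) and the iron-sulphur assembly factor ISCA2 (0.0299), with rises of 0.24, 0.24 and 0.23. The mean of the CASP9 probe sets differed by 0.07 (adjusted p = 0.486). ISCA2 lost its call without estradiol replicate 2 or 4 or vehicle replicate 4 (adjusted p = 0.0530 to 0.0648). The lowest change among all probe sets of such a gene was −0.17 for CASP9, 0.01 for BBS1, −0.08 for RASGRP2 and 0.14 for DGKZ. For SLC2A4RG, CCND3 and PLAUR it was 0.02, 0.10 and 0.18.

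The leucine zipper proteins that pair with C/EBP factors or bind like them split in direction. Of 12 measured genes 4 rose and 3 fell, 58.3% called, with a median of −0.07. This list and those after it were chosen with earlier results of these data known, so their shares called are descriptions. FOS, which pairs with JUN and can pair with C/EBP proteins, rose by 2.65 ± 0.11 (SE, adjusted p = 5.67e-07). Its vehicle level, 4.44, lay below the array medians. The repressor NFIL3 rose by 1.67 ± 0.06 and the stress factor ATF3 by 1.52 ± 0.11, ATF3 on 2 of its 3 probe sets. ATF4, the main partner of CEBPG and DDIT3 in the amino acid response, fell by 0.18 (adjusted p = 0.0135) and BATF fell by 0.50, both named after their values had been seen.

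Among 12 measured regulators of C/EBP proteins 3 rose and 1 fell, 33.3% called, with a median of 0.05. The largest changes were in the Tribbles pseudokinases, which bring C/EBPα to the ubiquitin ligase COP1 (TRIB1) or interact with DDIT3 and ATF4 (TRIB3). TRIB1 rose by 2.05 ± 0.04 (SE), with 2 of 3 probe sets called, and TRIB3 by 1.17 ± 0.05, with both called. The third rise was CDK2 (0.14, adjusted p = 0.0483). CDK4 fell by 0.19 and lost its call with median centring of each array (adjusted p = 0.0741), where 2 of the list were called. In each fit without 1 array 3 were called. TRIB2 and COP1 differed by 0.03 ± 0.05 and 0.06 ± 0.05 without passing the test.

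Of 24 C/EBP target genes of granulocytes and monocytes 10 rose and 1 fell, 45.8% called, with a median of 0.11. EVI2B, a membrane protein of myeloid cells, rose by 3.29 ± 0.17 (SE), ID1, which blocks basic helix-loop-helix proteins, by 2.43 ± 0.04, and MS4A3, a membrane protein of granulocyte precursors, by 2.07 ± 0.07. Genes of granule proteins were divided. PRG2 rose by 0.36 (adjusted p = 0.00281) and LYZ by 0.25 (adjusted p = 0.0260), and ELANE fell by 0.23 (adjusted p = 0.0407). MPO differed by −0.02 ± 0.08, LTF by −0.12 ± 0.09 and CAMP by 0.16 ± 0.08, and AZU1, PRTN3 and LCN2 were not called either. Outside the granule genes ID2, IL6R, KLF5, HP and SPI1 also rose, while CSF3R, CSF2RA, CSF1R, GFI1, CD14, S100A8 and S100A9 were not called. The vehicle level of EVI2B, 4.94, lay below the array medians, as did ELANE with estradiol (4.29) and with vehicle (4.52).

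Of 18 genes of the integrated stress response, the pathway in which DDIT3 is induced, 7 rose and 3 fell, 55.6% called, with a median of 0.05. The oxidase ERO1A, a target of DDIT3, rose by 0.87 ± 0.07 (SE) on all of its 3 probe sets. DDIT4, an inhibitor of growth signalling, rose by 0.79 ± 0.08 and the death receptor TNFRSF10B, another DDIT3 target, by 0.69 ± 0.07 on 2 of its 4 probe sets. The other 4 that rose were PPP1R15A (0.54), SLC7A11 (0.38), SESN2 (0.33) and HSPA5 (0.23). The 3 that fell were SLC3A2 (−0.30), HERPUD1 (−0.25) and PSAT1 (−0.20), while ASNS differed by −0.07 ± 0.04 and CHAC1 by −0.16 ± 0.07 without passing the test.

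Of 12 measured genes of the IL-6 and acute phase response, tied to CEBPB and CEBPD, 2 rose and 0 fell, 16.7% called, near the share of all genes, with a median of −0.03. IL6ST and SOCS3 were lower at an unadjusted p under 0.05. Complement C3 rose by 1.53 ± 0.08 (SE, adjusted p = 2.54e-06) and IL6 by 0.34 ± 0.08 (adjusted p = 0.0216). The IL6 call was lost without estradiol replicate 2, 3 or 4 (adjusted p = 0.0504 to 0.0633). The count called was 1 without estradiol replicate 2 or 3 and 5 without vehicle replicate 2.

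Among 12 genes of E2F and growth control, through which C/EBPα slows division, 5 rose and 3 fell, 66.7% called, with a median of 0.18. MYC fell by 1.19 on the log2 scale (SE 0.04), while cyclin D3, CCND3, rose by 0.81 ± 0.04 on 1 of its 2 probe sets and the kinase inhibitor CDKN1A by 0.72 ± 0.08. The E2F genes were divided. E2F2 rose by 0.50 and E2F4 fell by 0.27, while E2F1 (0.16) and E2F3 (0.11) did not pass the test. Of 9 measured genes that work beside CEBPZ in ribosome assembly 0 rose and 5 fell, 55.6% called, with a median of −0.18. None was higher at an unadjusted p under 0.05 either. NOC3L, a nucleolar assembly factor, fell by 0.45, PDCD11 by 0.39 and PES1 by 0.27, the last 2 each on 1 of their 2 probe sets. NOC2L, whose yeast counterpart pairs with Noc1, differed by −0.12 ± 0.04 without passing the test. The ribosome list had 8 calls with a further quantile normalization and 8 with genes above the median level only.

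Over the 7 lists 47 of 99 measured genes were called, against 17.9% of all genes. The lists were chosen with earlier results of these data known, so this difference is a description. In a separate fit of genes above the median level alone, 4276 of 9887 were called. That fit called 51 list genes and 4 family members, and CEBPE was not tested in it. Among the 4 members CEBPD (limma adjusted p = 0.0233) and CEBPZ (0.0156) were falls. Cell identity was checked on 8 measured K562 markers, whose mean log2 level was 11.03 to 11.05 with estradiol and 11.29 to 11.36 with vehicle. The erythroid factors GATA1, KLF1 and LMO2 fell by 0.89, 0.71 and 0.51, and the embryonic globin HBE1 by 0.17, which makes 4 of 8 called. The other 4 were not called, TAL1 and TFRC at 0.08 each, HBZ at −0.04 and EPOR at −0.15. Of 9 measured markers of lymphoid, epithelial and stromal cells 0 was called in limma (adjusted p below 0.05), and 1, EPCAM, had an unadjusted p under 0.05. Their mean was 5.91 to 5.99 with estradiol and 5.95 to 6.10 with vehicle. EPCAM stood at 10.81 with estradiol and 10.98 with vehicle, a change of −0.17 ± 0.05 (SE, adjusted p = 0.0611), and was called under 5 other settings. No marker can read 0 on this scale. The part of any shift in cell identity in the changes of the members was not tested.

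**Figure D4:**
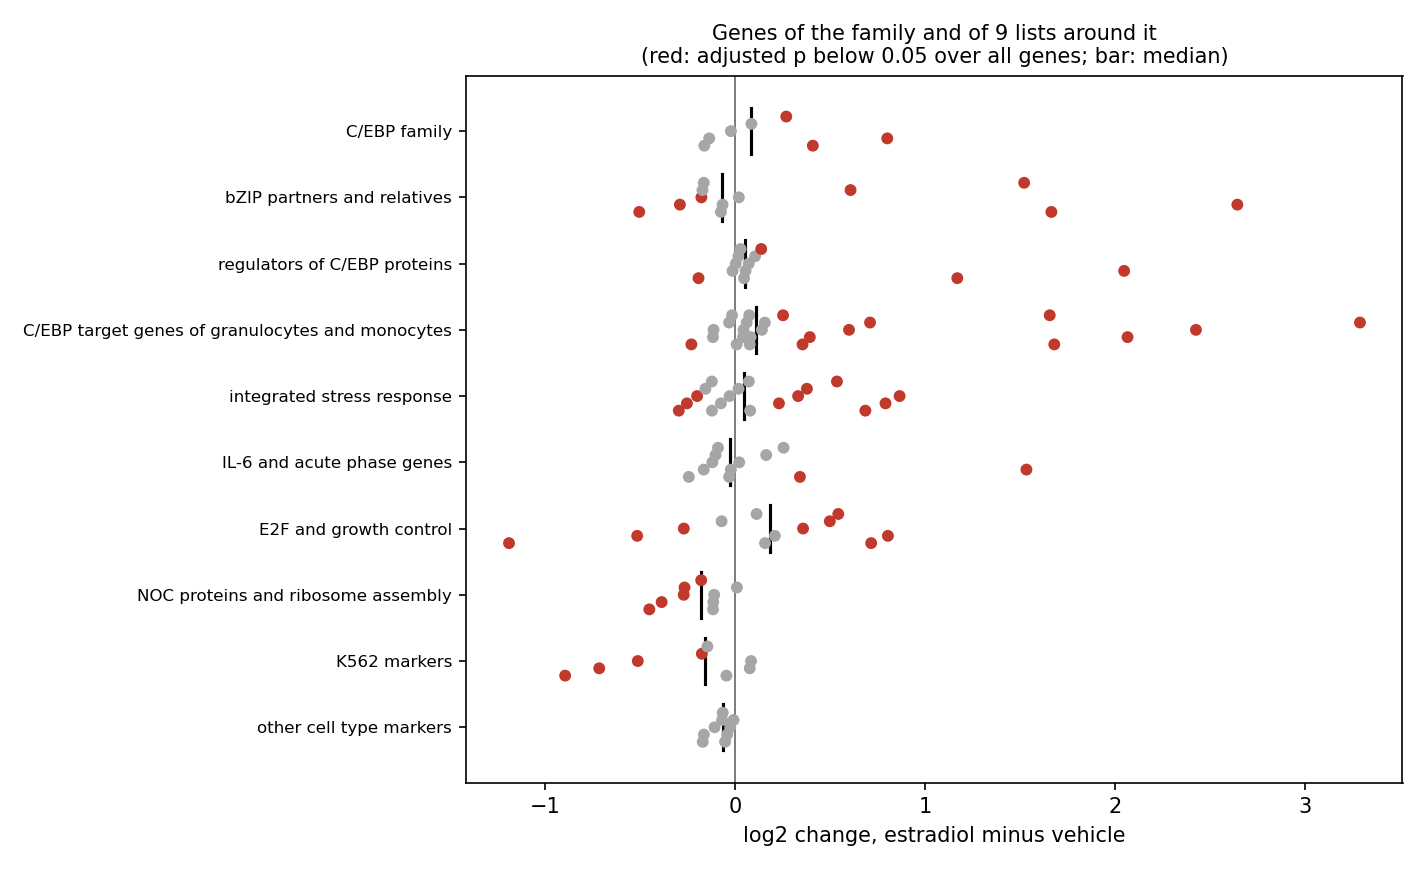
Log2 change, estradiol minus vehicle (horizontal axis), of each gene of the C/EBP family and of the 9 lists around it; red marks adjusted p below 0.05 over all genes and the black bar is the list median. Medians run from −0.18 for ribosome assembly to 0.18 for E2F and growth control, and the family median is 0.09.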

How the data were processed

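Total RNA of 8 cultures was amplified and biotinylated, 1 array per culture. The deposited log2 values are the authors' RMA output, per the submitters' processing notes, with no version stated. Since RMA equalises arrays, a general shift in RNA would not show. Of 54675 probe sets 41097 carried a single symbol, 1801 more than that and 11777 no symbol in the annotation. The symbols of 41043 were checked by gene identifier in a RefSeq table, and 0 changed. A gene was represented by its probe set with the highest mean.

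Tests used limma 3.58.1 (lmFit, eBayes) in R 4.3.3 on the contrast of estradiol over vehicle, with neither block nor filter, over 19775 genes or all probe sets. Figures used matplotlib 3.10.9. Named genes were all members, ESR1, up to 3 called genes per list with the largest change (or the one with the smallest p), and the 3 closest profiles per called member; other genes were picked once their values were known. The members, the 9 lists (125 genes, 116 measured) and the motifs were chosen with earlier results of these data known. No list was tested as a set. The fit was tested on simulated data in which few genes changed. Of 50 simulated log2 changes of each size it recovered 7 at 0.25, 31 at 0.5 and 48 at 1. Alternatives covered scaling, dim genes, probe set choice, variance model, array weights, the replicate number as a block and each array left out. The number of arrays limits the precision.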

Additional observations from a re-analysis of the deposited data

Results flagged for a closer look

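Single arrays that stood far from the other 3 of their group were found in 5 of 84 groups of 4 by Dixon's test at the 95% level, which chance alone flags in about 5% of groups. None was a member of the family. Vehicle replicate 2 gave 6.716 for C3, with its group's others at 6.472 to 6.491. For NFIL3 vehicle replicate 1 gave 7.379 and the others 7.220 to 7.240. CDK4 was 11.78 in vehicle replicate 3, with the others at 11.73. IL6 was 6.905 in estradiol replicate 3, against 6.772 to 6.790, and PES1 was 9.355 in estradiol replicate 1, against 9.251 to 9.260.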

How the results depend on the processing

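Of the 7 members, 3 were called, and 3 or 4 without 1 array at a time. The count was 5 with a further quantile normalization and 5 with array quality weights, where CEBPD and CEBPZ were added as falls. Over all genes the calls numbered 4144 and 4336 under these settings, against 3538, and the cause was not tested. DDIT3 kept its call under all 15 other settings and CEBPE under all 14 in which it was tested. The family's probe sets called numbered 2 to 3 without 1 array, and the list genes 42 to 49. The sign of CEBPA, which was never called, turned with median centring (0.0049), with array weights (0.0092) and without estradiol replicate 1 (0.033) or vehicle replicate 3 (0.0015), its changes without 1 array running from −0.062 to 0.033. That of CEBPD turned with the mean of its probe sets (0.00015).

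Same-numbered arrays did not deviate together (correlations of their deviations −0.05, −0.21, 0.09 and 0.11), so the numbers were not taken as pairs. With the replicate number as a block 2 members were called, CEBPG no longer (adjusted p = 0.0577), with 2 probe sets, 42 list genes and 2598 of all genes, and CASP9 and ISCA2 lost their calls (adjusted p = 0.0512 and 0.0717). A sign-flip test of same-numbered pairs called 0 of 21 member pairs, since 4 pairs cannot give a p below 0.125. Signal over background is unknown for all members.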

Other observations

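The transcripts next to 2 members were looked at after the values had been seen. CEBPA-DT, the divergent RNA beside CEBPA, had 6.35, 6.41, 6.41 and 6.40 with estradiol, against 6.04, 6.44, 6.61 and 6.48 with vehicle. Its change was 0.0013 ± 0.11 (SE, limma adjusted p = 0.997), and the vehicle arrays spread more widely than the estradiol arrays. CEBPZOS, the gene on the opposite strand beside CEBPZ, changed by 0.09 ± 0.06 (adjusted p = 0.432) at the brightest of its 3 probe sets, not past the test. The others differed by −0.01 and 0.10 without a call, so whether its sign is opposite to that of CEBPZ depends on the probe set.

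Over the 9 family probe sets vehicle replicate 2 was the highest of its group in 3 and the lowest in 4. Those where it was the highest were CEBPE, DDIT3 and the dim CEBPD probe set, and those where it was the lowest were CEBPB, CEBPZ, the bright CEBPD probe set and the CEBPG probe set 225527_at. Estradiol replicate 2 was the highest of its group in 5 of the 9 and estradiol replicate 3 the lowest in 5.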
